A study of Mus musculus with 4 samples.

Results

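The Wnt pathway was examined in CD31-selected cells of the mouse lung, named endothelial cells (ECs) in the study, during compensatory growth. It was followed through 61 genes of the 24063 gene symbols in the count tables. A symbol was included when it began with Wnt, Fzd, Sfrp, Dkk or Rspo followed by a digit, or when it named the ligand acyltransferase Porcn, a coreceptor (Lrp5, Lrp6), a receptor of R-spondins (Lgr4, Lgr5, Lgr6), a ligase that removes Frizzleds (Rnf43, Znrf3), a further secreted inhibitor (Wif1, Notum), a cytoplasmic member (Ctnnb1, Axin1, Axin2, Apc, Nkd1, Nkd2) or a nuclear factor (Lef1, Tcf7, Tcf7l1, Tcf7l2). Symbols alone decided membership, and no measured value did.

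Cells were taken with anti-CD31 magnetic beads from the lungs of 8 week old male C57BL6J mice (C57BL6 in the labels). The left lung had been removed (unilateral pneumonectomy, PNX) 7 days earlier in the post-PNX group, and the sham group had its chest opened with both lungs left in place. Both groups had anesthesia with ketamine and xylazine and meloxicam after surgery. Each group had 2 libraries of polyadenylated RNA, and the cells of 2 mice were pooled in each library. The p-values measure the spread between the libraries of a group, which was small. Over 1 transcript per gene the libraries held between 41367438 and 50952879 counts, and 3 counts, taken as the floor of detection, lay between 0.0589 and 0.0725 CPM (counts scaled to a common library total), a limit that covers counting error only. The labels give male mice, but all 46 genes of chromosome Y in the tables had 0 counts in the 4 libraries and Xist had between 31872 and 33792 normalized counts in each; sham and post-PNX libraries were alike in this.

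Wnt proteins are secreted glycoproteins that need a lipid, added by Porcn, to leave the cell and to bind Frizzled receptors. With Lrp5 or Lrp6 as coreceptor they halt the destruction of beta-catenin, which Axin, Apc and kinases carry out, and beta-catenin then acts with TCF/LEF factors on target genes, whereas ligands such as Wnt5a mostly act through Ror and Frizzled receptors without beta-catenin. R-spondins keep Frizzleds at the cell surface by withdrawing the ligases Rnf43 and Znrf3, and Sfrp, Dkk, Wif1 and Notum proteins hold the ligands or coreceptors back. In vessels, Fzd4 with Lrp5 and Tspan12 is known as the receptor of the non-Wnt ligand norrin.

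In the CD31-selected cells 7 days after PNX, transcripts of secreted Wnt antagonists (Sfrp1, Sfrp2, Sfrp4, Dkk2) and of the ligands Wnt4 and Wnt5a were higher than after sham operation, transcripts of Wnt2b and Lef1 were lower, and those of the receptors Fzd4, Lrp5 and Lrp6 were lower by smaller factors. Axin2 and Ctnnb1 stayed near their sham levels. In the same libraries the summed level of fibroblast markers, mostly Col1a1, Col1a2 and Col3a1, was 3.63 times that of sham. Of that list Dcn and Lum were higher too, while Pdgfra stood at 85.3% and Tcf21 at 101% of sham. Mesothelial markers summed to 2.18 times, macrophage markers to 2.34 times and endothelial markers to 0.835 times the sham level. The part of other cells in the differences of the Wnt pathway genes was not tested. Rose and fell are used here for an adjusted p under 0.01 (quasi-likelihood F test of edgeR, Benjamini-Hochberg adjustment over 16208 genes), whatever the size of the change. A change past both thresholds of the study also had a log2 fold change above 1 or below -1.

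Enough counts for the test were present for 52 of the 61 genes. Of these, 16 rose (30.8%, against 29.3% of all genes tested) and 17 fell (32.7%, against 27.8%), which is close to the background of a comparison in which 57.1% of all genes passed the test. The median log2 fold change over the 52 genes was -0.02, beside 0.00 over all genes, and the median absolute log2 fold change was 0.38, beside 0.22. Past both thresholds were 11 genes (21.2%, against 7.56% of all genes), 9 of them higher (5.9% of all genes were) and 2 lower (1.66% of all genes were). The 9 higher genes were Sfrp2, Wnt6, Sfrp4, Lgr5, Wnt5a, Wnt4, Fzd10, Sfrp1 and Dkk2, and the 2 lower genes were Wnt2b and Lef1.

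**Figure D1:**
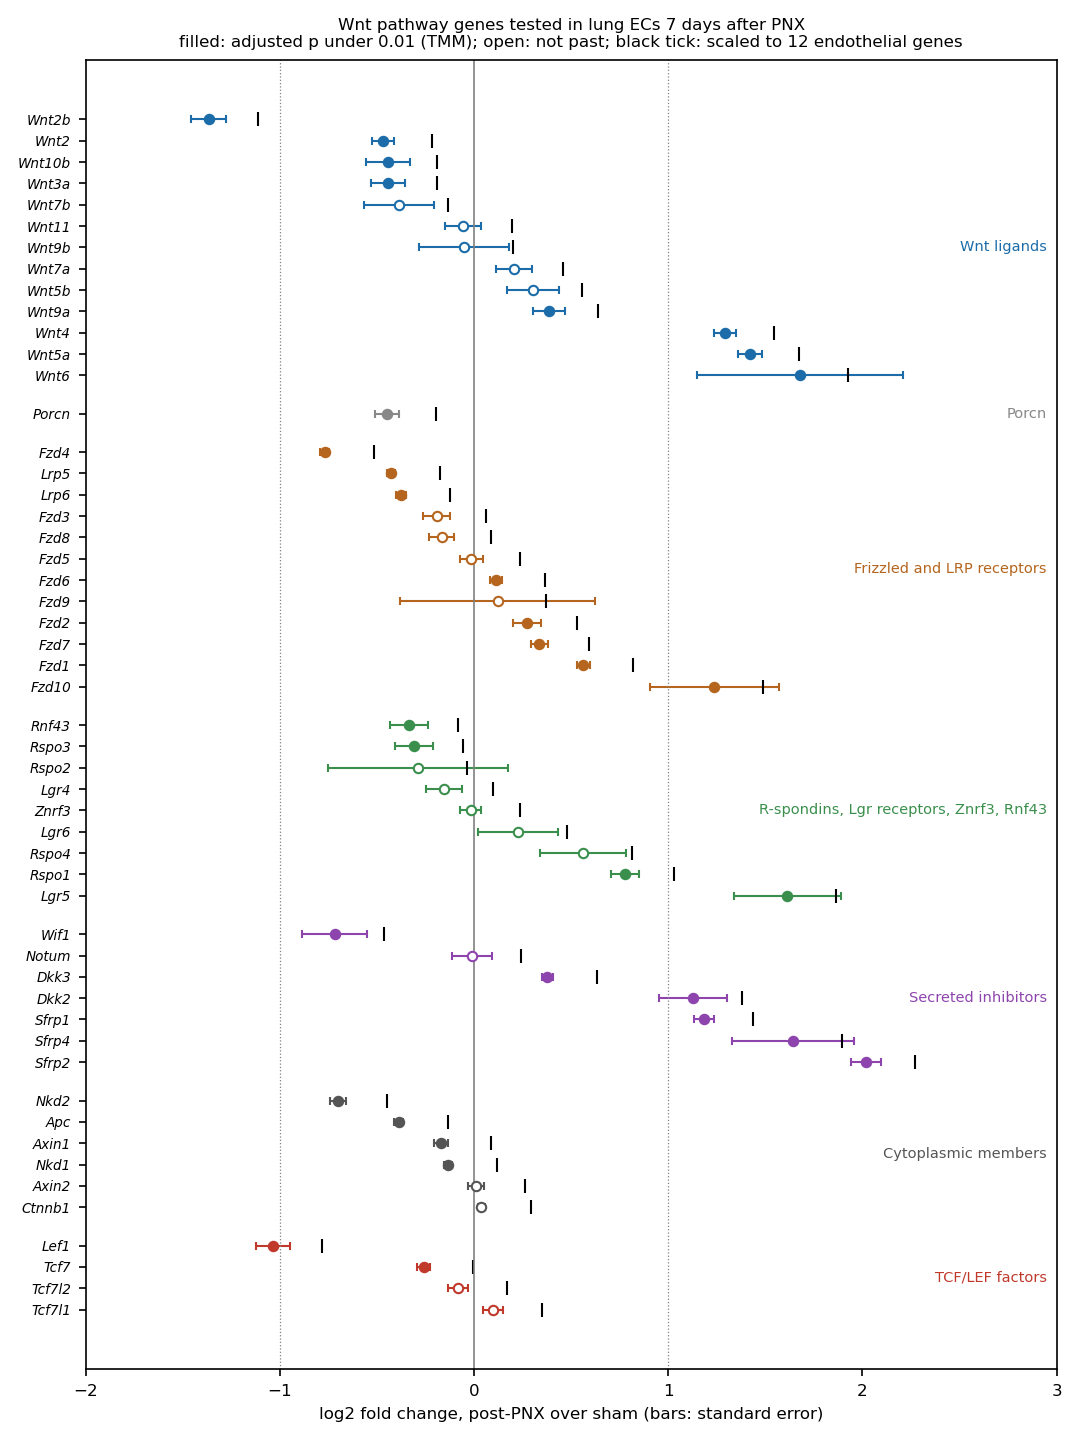
Log2 fold change of post-PNX over sham (x axis) for the 52 genes tested, by role, with the standard error as a bar. Filled points have an adjusted p under 0.01, black ticks give the value when libraries are scaled to 12 endothelial genes, and dotted lines mark -1 and 1. Wnt2b and Lef1 lie beyond -1, while Sfrp2, at 2.02, lies farthest to the right.

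The direction of small changes depends on what the libraries are scaled to. The 12 endothelial marker genes had a median log2 fold change of -0.25, and scaling the libraries to them moved the median of all genes by 0.25. Under that scaling 26 of the 52 genes rose (58.6% of all genes did) and 9 fell (8.93% of all genes did). The 9 were Wnt2b, Lef1, Fzd4, Nkd2, Wnt2, Porcn, Lrp5, Apc and Lrp6. Past both thresholds there were again 11 genes (8.72% of all genes), 10 of them shared, with Rspo1 in place of Lef1.

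For 7 of the 11 genes past both thresholds, namely Dkk2, Fzd10, Lef1, Sfrp2, Wnt2b, Wnt4 and Wnt6, RefSeq promoters of the build GRCm38.p6 were at hand, and 39 of the 61 genes had one. The 250 bases before the start that the promoter table gives for a gene are shown for 4 genes. Sfrp2 was the strongest riser among the antagonists, and Wnt4 the more abundant of the higher ligands with an entry. With both lower genes, these 4 carry the contrast between a higher antagonist, a higher ligand and the lower Wnt2b and Lef1. For Sfrp2 that start is also the start of the counted transcript, and it lies inside the annotated span of the gene, which begins further upstream. For Wnt4, Wnt2b and Lef1 the counted transcript starts 146, 212 and 148 bases away from the start in the table, and the window of Lef1 reaches into its annotated span. Capitals mark GC boxes (GGGCGG or CCGCCC, both strands).
Sfrp2 (chr3:83766071-83766320, plus strand): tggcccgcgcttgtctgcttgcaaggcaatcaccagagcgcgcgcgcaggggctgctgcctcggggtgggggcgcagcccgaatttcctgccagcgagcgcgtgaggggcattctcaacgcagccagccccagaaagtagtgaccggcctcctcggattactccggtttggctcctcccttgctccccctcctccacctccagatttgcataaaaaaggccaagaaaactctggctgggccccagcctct
Wnt4 (chr4:137277385-137277634, plus strand): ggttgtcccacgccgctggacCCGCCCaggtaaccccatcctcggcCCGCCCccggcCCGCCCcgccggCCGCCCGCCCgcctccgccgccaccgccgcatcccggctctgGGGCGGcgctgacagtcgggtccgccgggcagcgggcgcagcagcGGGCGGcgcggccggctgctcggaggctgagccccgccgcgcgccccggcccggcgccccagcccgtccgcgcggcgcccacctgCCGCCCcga
Wnt2b (chr3:104961710-104961959, minus strand): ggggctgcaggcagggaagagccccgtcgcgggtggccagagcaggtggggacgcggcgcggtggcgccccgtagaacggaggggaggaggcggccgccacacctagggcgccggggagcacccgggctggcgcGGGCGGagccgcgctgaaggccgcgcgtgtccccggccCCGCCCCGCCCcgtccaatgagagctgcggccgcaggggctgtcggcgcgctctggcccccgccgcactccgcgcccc
Lef1 (chr3:131110073-131110322, plus strand): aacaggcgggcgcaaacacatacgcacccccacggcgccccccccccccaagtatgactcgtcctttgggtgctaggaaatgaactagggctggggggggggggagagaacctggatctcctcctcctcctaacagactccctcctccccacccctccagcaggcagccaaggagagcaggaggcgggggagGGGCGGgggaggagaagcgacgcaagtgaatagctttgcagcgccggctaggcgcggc
Wnt4 had 8 GC boxes in its window, Wnt2b 3, Lef1 1 and Sfrp2 0. A GC box was found in 28 of the 39 promoters (71.8%), and in 32.7% of the 32851 promoters of the same length in the table. The 39 hold 1 promoter per gene. The 32851 are all entries, not reduced to 1 per gene, so the sets were chosen differently. The median GC content was 68.0% over the 39 and 52.4% over all. The TCF/LEF motif CTTTGAT, searched on both strands, occurred in 3.21% of all promoters and in 1 of the 39, that of Wnt11. The TEAD motif GGAATG, searched in the same way, occurred in 12.6% of all promoters and in 1 of the 39, that of Lgr4. Neither motif was in the 7 promoters of genes past both thresholds, which says only that these letters are not in these windows.

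Among the 19 Wnt ligands, 13 were tested, of which 4 rose (30.8%, against 29.3% of all genes tested). A further 4 fell (30.8%, against 27.8%), so that both shares were close to those of all genes, and 5 did not pass the test. Compared per transcript length, in FPKM, the most abundant ligand of the sham libraries was Wnt2, which with Wnt2b specifies the lung field of the embryonic foregut. Its FPKM was 5.86 ± 0.093 (SD, n = 2) in sham and 4.26 ± 0.14 in post-PNX libraries. Wnt2 had 923.1 and 902.2 normalized counts (counts brought to a common library size with TMM factors) in sham and 674.1 and 645.1 in post-PNX libraries. The groups did not overlap, and the log2 fold change was -0.47 (SE 0.057, adjusted p = 1.2e-10).

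Wnt2b, on chr3:104944805-104961709, fell further than its relative. Its normalized counts were 473.8 and 521.9 in sham and 201.4 and 182.7 in post-PNX libraries. Both post-PNX libraries lay below 0.5 times the lower sham library, and the log2 fold change was -1.37 (SE 0.09, adjusted p = 8.9e-21). Scaled to the endothelial genes it was -1.11.

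Wnt4 and Wnt5a showed the opposite pattern. Wnt4, a ligand best known from kidney tubule and female duct formation, had 520.9 and 572.9 normalized counts in sham and 1276 and 1401 in post-PNX libraries. Every post-PNX value was above 2 times the sham values, with a log2 fold change of 1.29 (SE 0.057, adjusted p = 3.1e-29). Wnt5a (chr14:28504543-28527448), the main ligand of the branch without beta-catenin, had 425.8 and 403.7 in sham and 1101 and 1126 in post-PNX libraries. The rise came to 1.42 on the log2 scale (SE 0.06, adjusted p = 5e-30). For both genes the libraries of a group were close together and the groups far apart.

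Wnt6 had the largest log2 fold change of the ligands, 1.68, but on 5, 4, 12 and 15 counts in sham 1, sham 2, post-PNX 1 and post-PNX 2. Its standard error was 0.53 and its adjusted p = 0.0046. The call was lost when any 1 of the 4 libraries was left out and with the Wald test of DESeq2. Wnt9a also rose, with a log2 fold change of 0.39, and Wnt10b and Wnt3a fell, with -0.44 each. Scaled to the endothelial genes, Wnt10b (-0.19, adjusted p = 0.13) and Wnt3a (-0.19, adjusted p = 0.05) no longer passed the test, and Wnt10b did not pass without the second sham or the first post-PNX library (adjusted p up to 0.025) or with the DESeq2 Wald test.

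The remaining ligands tested did not pass. Wnt5b (0.30), Wnt7a (0.21), Wnt9b (-0.05), Wnt11 (-0.06) and Wnt7b (-0.39, SE 0.18, adjusted p = 0.056) are given here by their log2 fold changes. Wnt7b is a ligand of the lung epithelium. Low counts kept 6 ligands out of the test. Wnt1 had 0 counts in every library, which allows a level of up to 0.0589 to 0.0725 CPM, and Wnt3, Wnt8a, Wnt8b, Wnt10a and Wnt16 had at most 6.

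The make-up of the ligand pool differed between the groups more than its size did. The FPKM of the 19 ligands summed to 19.3 ± 0.084 (SD, n = 2) in sham and 21.4 ± 0.4 in post-PNX libraries, a ratio of 1.11, or 1.33 when scaled to the endothelial genes. Wnt2 made up 30.9% and 30.0% of this sum in sham and 20.6% and 19.2% of it in post-PNX libraries. Wnt4 went from 9.63% and 10.5% to 21.6% and 23.0%, and was thereby the most abundant ligand per length after PNX. The share of Wnt5a went from 6.91% and 6.52% to 16.3% in both post-PNX libraries, and that of Wnt2b from 9.37% and 10.3% to 3.65% and 3.21%. Shares do not depend on the scaling of the libraries.

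**Figure D2:**
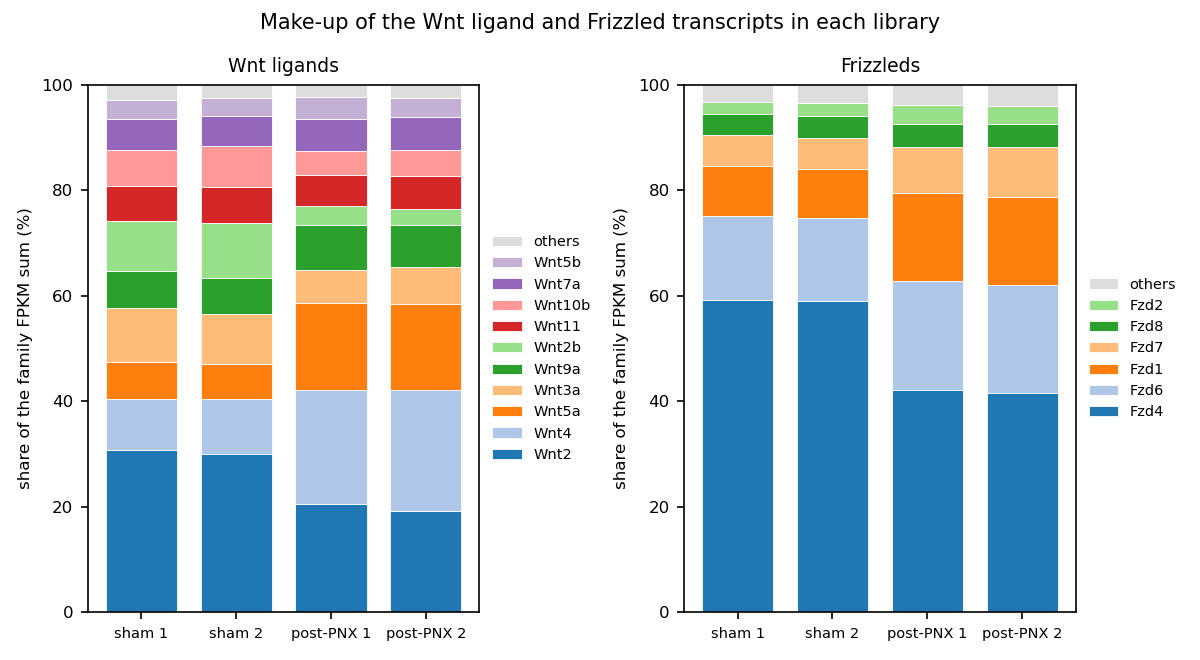
Share of each gene in the summed FPKM of the 19 Wnt ligands (left) and of the 10 Frizzleds (right), in percent on the y axis, with 1 bar per library. Wnt4 and Wnt5a take a larger part of both post-PNX bars, and the part of Fzd4 goes from about 59% to about 42%.

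The lipid that ligands need is added by Porcn, which fell from 760.1 and 793.1 normalized counts in sham to 572.9 and 563.8 in post-PNX libraries. The groups did not overlap, and the log2 fold change was -0.45 (SE 0.061, adjusted p = 3.5e-09). Wls, which carries lipidated ligands to the surface and belongs to the list of other pathway genes, had 7291 and 7138 in sham and 7586 and 7348 after PNX. Its log2 fold change was 0.05, which did not pass the test (adjusted p = 0.061).

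Fzd4 was the dominant Frizzled in the libraries of both groups. Located on chr7:89404366-89410110, it had an FPKM of 39.7 ± 0.12 (SD, n = 2) in sham and 23.4 ± 0.37 in post-PNX libraries. Its normalized counts were 10749 and 10790 in sham and 6378 and 6253 in post-PNX libraries, a fall by 0.77 on the log2 scale (SE 0.023, adjusted p = 3.1e-38). Scaled to the endothelial genes it still fell (-0.52). Each post-PNX library was near 0.59 times the sham level, and Fzd4 was the only Frizzled of the 10 that fell under either scaling.

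A rise was found for 5 Frizzleds. Fzd1 had the largest rise among the abundant ones, with a log2 fold change of 0.56 (SE 0.034), followed by Fzd7 (0.34), Fzd2 (0.27) and Fzd6 (0.11). Fzd10 had 10.9 and 16.3 normalized counts in sham and 31.4 and 32.3 in post-PNX libraries. Although these groups did not overlap, Fzd10 is scarce, and its log2 fold change of 1.24 (SE 0.33, adjusted p = 0.00089) was lost as a call with the DESeq2 Wald test and without the first sham or either post-PNX library (0.96 to 1.26). Fzd2 and Fzd6 lost their calls with the DESeq2 Wald test and without the first post-PNX library, Fzd2 also without the first sham library. Fzd3 (-0.19), Fzd8 (-0.17), Fzd5 (-0.01) and Fzd9 (0.12) did not pass the test, and scaled to the endothelial genes Fzd5 passed it at 0.24.

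The summed FPKM of the 10 Frizzleds was 67.2 ± 0.31 (SD, n = 2) in sham and 56.0 ± 0.29 in post-PNX libraries, 83.4% of sham, but 99.4% of sham when scaled to the endothelial genes. The share of Fzd4 in it went from 59.2% and 59.0% to 42.1% and 41.5%. Fzd1 took 9.44% and 9.28% in the sham libraries and 16.8% and 16.6% after PNX, and Fzd6 went from 15.9% and 15.7% to 20.6% in both. Per length, the order Fzd4, Fzd6, Fzd1 held in all 4 libraries.

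Both coreceptors fell alongside Fzd4. Lrp5, on chr19:3584825-3686585, had 12980 and 13368 normalized counts in sham and 9692 and 9890 in post-PNX libraries. Its log2 fold change was -0.43 (SE 0.021, adjusted p = 1.9e-26), and -0.17 when scaled to the endothelial genes (adjusted p = 2.3e-08). Lrp6 fell with a log2 fold change of -0.38 (-0.12 under that scaling). The proportion of the pair stayed the same, with Lrp5 at between 72.0% and 73.6% of their FPKM in every library.

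Components of the norrin receptor are on the list of other pathway genes. Tspan12, the tetraspanin that assists Fzd4, had 7443 and 6984 normalized counts in sham and 5255 and 5328 after PNX, and fell by 0.45 on the log2 scale (adjusted p = 3.1e-23). Norrin itself (Ndp) was scarce in the libraries, with 7.25 and 10.2 in sham and 16.7 and 14.5 after PNX, and did not pass the test (log2 fold change 0.85, SE 0.44, adjusted p = 0.083). Adgra2 (Gpr124 in the tables), which with Reck serves as receptor partner of Wnt7 ligands in brain vessels, had 6505 and 6606 in sham and 8539 and 8529 after PNX. It rose by 0.38 on the log2 scale (adjusted p = 2.4e-22). Reck had 3219 and 2987 in sham and 2627 and 2622 after PNX, a log2 fold change of -0.24 (adjusted p = 4.8e-09), which turned to 0.01 when scaled to the endothelial genes.

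**Figure D3:**
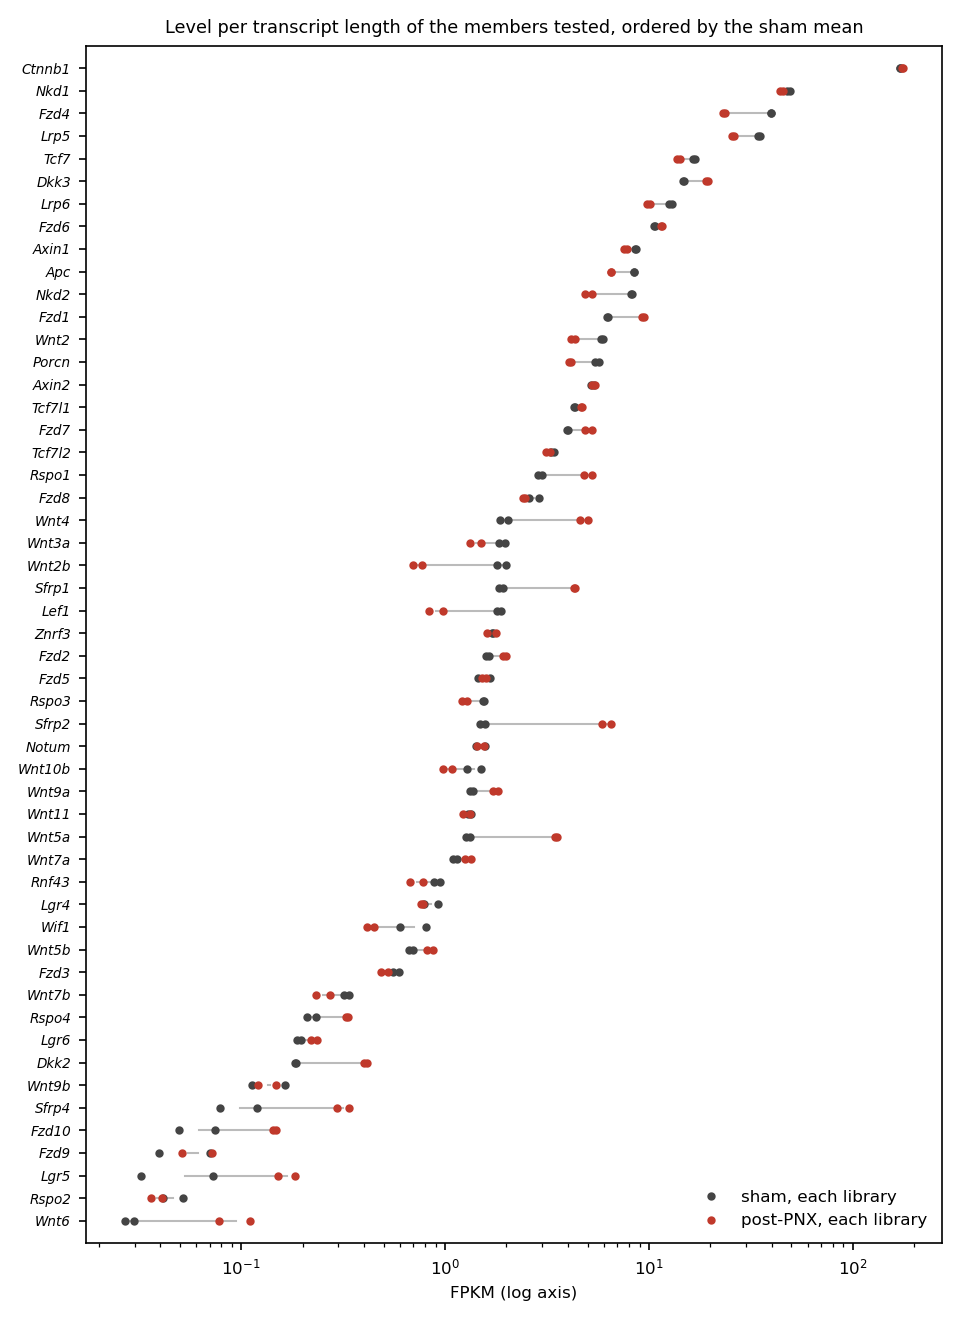
FPKM of the 52 genes tested on a log axis, 1 row per gene ordered by the sham mean, with black points for sham and red points for post-PNX libraries and a line between the group means. Fzd4 shows the widest gap among the genes at 10 FPKM or more in sham, from 39.7 to 23.4, and gaps of more than 2 times lie at Sfrp2, Sfrp1, Wnt4, Wnt5a, Wnt2b, Lef1 and scarce genes near the bottom.

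In the R-spondin axis 9 genes were tested, 2 rose (22.2%, against 29.3% of all genes tested) and 2 fell (22.2%, against 27.8%). Rspo1, the most abundant R-spondin per length, had 385.9 and 402.7 normalized counts in sham and 705.5 and 641.8 in post-PNX libraries. The groups were far apart, and Rspo1 rose by 0.78 on the log2 scale (SE 0.07, adjusted p = 4.6e-15). Its share of the R-spondin FPKM went from 61.2% and 62.4% to 76.1% and 75.1%. Rspo3, known as an angiocrine factor of ECs, fell by 0.31 (adjusted p = 0.0053), but its call was lost when any 1 library was left out and when libraries were scaled to the endothelial genes (-0.06). About 13.1% of the Rspo3 transcript overlaps an exon of Gm48159 on the opposite strand.

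Lgr5, a receptor of R-spondins known as a stem cell marker of the gut, was scarce and varied between the sham libraries. It had 25.4 and 11.2 normalized counts in sham and 52.1 and 63.5 in post-PNX libraries. The log2 fold change was 1.61 (SE 0.28, adjusted p = 7.4e-07), with a range from 1.18 without the second sham library to 2.34 without the first. Lgr4 (-0.16) and Lgr6 (0.23) did not pass the test. Of the ligases, Rnf43 fell by 0.34 (adjusted p = 0.0023) and the log2 fold change of Znrf3 was -0.02 (adjusted p = 0.79). The call of Rnf43 was lost under the endothelial scaling (-0.08), with the DESeq2 Wald test, with counts summed over transcripts, and without the first sham or the second post-PNX library. Rspo4 (0.56, adjusted p = 0.022) and Rspo2 (-0.29) did not pass.

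Among the 10 secreted inhibitors 7 were tested, of which 5 rose (71.4%, against 29.3% of all genes tested) and 1 fell (14.3%, against 27.8%). Their median log2 fold change was 1.13. Sfrp2, a decoy that binds Wnt proteins through a Frizzled-like domain, changed most of all 52 genes. On chr3:83765750-83774314, it had 218.3 and 230.4 normalized counts in sham and 861.8 and 958.2 in post-PNX libraries. Every post-PNX value was above 3 times every sham value, and the log2 fold change was 2.02 (SE 0.076, adjusted p = 6.8e-33). An exon of Gm26771 on the opposite strand covers 17.3% of its transcript, and the strand setting of the counting is not given in the sources used here.

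Sfrp1, a decoy of the same family on chr8:23411383-23449632, had 593.4 and 619.8 normalized counts in sham and 1366 and 1392 after PNX. Its log2 fold change was 1.19 (SE 0.053, adjusted p = 4.6e-29). Sfrp4 had 15.4 and 10.2 in sham and 43.2 and 37.9 after PNX, with a log2 fold change of 1.64 (SE 0.32, adjusted p = 7e-06). All 3 Sfrps tested were thus higher in both post-PNX libraries than in either sham library. Their summed FPKM, with Sfrp5 included, went from 3.56 ± 0.084 (SD, n = 2) to 10.9 ± 0.46, a ratio of 3.05. Sfrp5 had 9, 7, 3 and 1 counts in sham 1, sham 2, post-PNX 1 and post-PNX 2 and was not tested.

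Dkk2, an antagonist that binds the coreceptors, had 50.7 and 49.9 normalized counts in sham and 112.0 and 108.1 after PNX. The rise was 1.13 on the log2 scale (SE 0.18, adjusted p = 9.8e-08). Dkk3, a divergent member of the family that held 98.7% of the Dkk FPKM in sham libraries, was the most abundant inhibitor per length, with an FPKM of 14.8 ± 0.068 (SD, n = 2) in sham and 19.3 ± 0.23 after PNX. It had 3663 and 3637 normalized counts in sham and 4774 and 4705 after PNX and rose by 0.38 on the log2 scale (SE 0.028, adjusted p = 1.6e-18). Dkk1 had at most 1 count and Dkk4 0 counts in each library, and neither was tested.

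Wif1, an inhibitor that binds Wnt proteins, was the exception. It had 133.2 and 98.9 normalized counts in sham and 73.7 and 68.0 after PNX, without overlap, and fell by 0.72 on the log2 scale (SE 0.17, adjusted p = 0.00015). This call did not hold without the first sham library (-0.48, adjusted p = 0.037), under the endothelial scaling (-0.47, adjusted p = 0.012) or with the DESeq2 Wald test. For Notum, which removes the lipid from Wnt proteins, the log2 fold change was -0.01 (SE 0.11), and 30.9% of its transcript overlaps exons on the opposite strand.

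**Figure D4:**
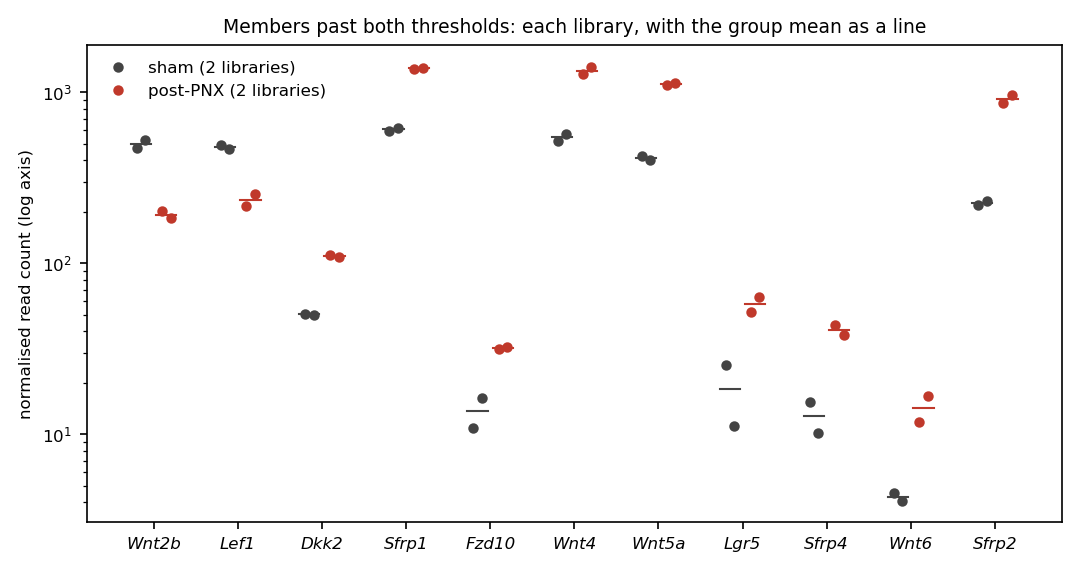
Normalized counts (log y axis) of the 11 genes past both thresholds, with a point for each sham (black) and post-PNX (red) library and a line at the group mean. The groups do not overlap for any of the 11, and Lgr5, Sfrp4, Fzd10 and Wnt6 lie below 70 normalized counts in every library.

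In the cytoplasm, beta-catenin (Ctnnb1) was the most abundant transcript of all 61 genes, with an FPKM of 169.9 ± 0.24 (SD, n = 2) in sham and 175.5 ± 1.25 in post-PNX libraries. It had 45293 and 45360 normalized counts in sham and 46719 and 46366 after PNX. The log2 fold change was 0.04 (SE 0.017, adjusted p = 0.04), past neither threshold. An exon of Ulk4 on the opposite strand covers 20.9% of its transcript. Beta-catenin is controlled mainly as a protein, which was not measured.

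Axin2, both a scaffold of the destruction complex and a widely used target gene of the pathway, had 1631 and 1680 normalized counts in sham and 1694 and 1636 after PNX. The groups overlapped, with a log2 fold change of 0.01 (SE 0.041, adjusted p = 0.84). Relative to the endothelial genes, Axin2 (0.26, adjusted p = 1.6e-07) and Ctnnb1 (0.29, adjusted p = 1.6e-17) rose, by about as much as the median gene moved under that scaling.

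The other 4 cytoplasmic genes fell (66.7% of the 6, against 27.8% of all genes tested). Nkd2, which binds Dishevelled and is itself induced by the pathway in many cells, had 1952 and 1941 normalized counts in sham and 1242 and 1149 after PNX. Its log2 fold change was -0.70 (SE 0.043, adjusted p = 2.5e-22), and -0.45 when scaled to the endothelial genes. Apc followed with -0.39 (-0.13 under that scaling). Axin1 (-0.17) and Nkd1 (-0.13) fell by little, and their direction turned under the endothelial scaling, to 0.08 and 0.12. Nkd1 was nevertheless the second most abundant of the 61 genes per length, with an FPKM of 48.6 in sham and 44.5 after PNX.

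Of the 4 TCF/LEF factors, Lef1 and Tcf7 fell and Tcf7l1 (0.10) and Tcf7l2 (-0.08) did not pass the test. Lef1, on chr3:131110297-131224357, had 489.2 and 464.8 normalized counts in sham and 215.2 and 252.9 after PNX. Both post-PNX libraries were far below sham, and the log2 fold change was -1.04 (SE 0.088, adjusted p = 3e-16). It missed the threshold of -1, with the test still passed, without the first sham library (-0.996), without the first post-PNX library (-0.92) and when scaled to the endothelial genes (-0.78). An exon of Gm43352 on the opposite strand covers 36.0% of its transcript.

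Tcf7, the most abundant of the 4 per length, had 2705 and 2782 normalized counts in sham and 2249 and 2338 after PNX. The log2 fold change was -0.26 (SE 0.034, adjusted p = 1.5e-09), and -0.01 (adjusted p = 0.90) when scaled to the endothelial genes. The summed FPKM of the 4 factors was 26.2 ± 0.33 (SD, n = 2) in sham and 22.8 ± 0.59 after PNX, 87.0% of sham, or 103.7% when scaled to the endothelial genes. Within it the share of Lef1 went from 7.25% and 6.77% to 3.73% and 4.22%, and that of Tcf7l1 from 16.7% and 16.3% to 20.7% and 20.2%.

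The 8 genes with a sham FPKM of at least 10 (Ctnnb1, Nkd1, Fzd4, Lrp5, Tcf7, Dkk3, Lrp6 and Fzd6) held 5 that fell, 2 that rose and 0 past both thresholds, so that 87.5% passed the test, against 57.1% of all genes. Their high counts let log2 fold changes as small as 0.11 (Fzd6) and -0.13 (Nkd1) pass. The share over genes of all levels is therefore not a like background. With 8 genes and a background of 7.56%, a count of 0 past both thresholds says little. The 11 genes past both thresholds had a mean FPKM between 0.0283 and 1.94 in sham and between 0.0942 and 6.21 in post-PNX libraries. In bulk samples, fewer cells that express a gene and less RNA of that gene per cell cannot be told apart.

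Markers of other cell types were measured in the same libraries, because Wnt ligands, Sfrps and TCF/LEF factors are also made by fibroblasts, mesothelium and lymphocytes. Endothelial markers were high throughout, and 10 of 12 fell while Emcn rose. Their summed level was 551913 to 557598 normalized counts in sham and 462218 to 463893 in post-PNX libraries. The alveolar type 2 marker Sftpc lay above each of them, with 171272 and 170757 in sham and 111404 and 110651 after PNX. Cdh5, the highest of the 12, had 109837 and 110681 in sham and 93964 and 95234 after PNX. Of the 7 fibroblast markers 5 rose, 1 (Pdgfra) fell and Tcf21 did not pass the test (log2 fold change 0.02), and none was at 0. Their sum, mostly Col1a1, Col1a2 and Col3a1, was 61429 to 62019 in sham and 223349 to 224945 after PNX. All 6 mesothelial markers tested rose, with a sum of 9862 to 10017 in sham and 21463 to 21843 after PNX, while Calb2 had at most 3 counts in each library. Of the 7 mural markers 5 rose, and their sum went from between 20786 and 21006 to between 27614 and 27633. All 7 macrophage markers rose, from between 22004 and 22337 to between 51714 and 51914. The fibroblast, mesothelial, mural and macrophage lists moved in the same direction as Sfrp1, Sfrp2, Sfrp4, Dkk2, Wnt4, Wnt5a and Rspo1, and their part in those rises was not tested. The 17 genes that fell, Wnt2 (-0.47) and Wnt2b (-1.37) among them, moved against the summed levels of these 4 lists. This holds for any gene that falls, and within the fibroblast list Pdgfra fell too. The part of these cells in the falls was not tested.

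All 8 T cell markers fell, from a sum of 3939 to 3942 normalized counts in sham to between 2682 and 2700 after PNX, and none was at 0. All 7 B cell markers fell too, from between 7553 and 7570 to between 4260 and 4396, whereas 0 of 6 NK cell markers passed the test (1353 to 1377 in sham and 1161 to 1350 after PNX). Lef1 and Tcf7 are strongly expressed in T cells and moved in the same direction, and the part of the lymphocytes in their falls was not tested. The 7 alveolar type 2 markers fell from between 327449 and 327883 to between 210316 and 211661, the 7 alveolar type 1 markers from between 87621 and 88563 to between 60625 and 61043, and the 7 airway markers from between 181412 and 182349 to between 89144 and 91654. Wif1 fell with them, Wnt7b lay at -0.39 without passing the test, and the part of epithelial cells in these values was not tested. Of the lymphatic markers, Prox1 rose, Lyve1 fell, Mmrn1 and Reln did not pass the test and Ccl21a had at most 1 count in each library (56801 to 57462 in sham and 32800 to 33053 after PNX).

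**Figure D5:**
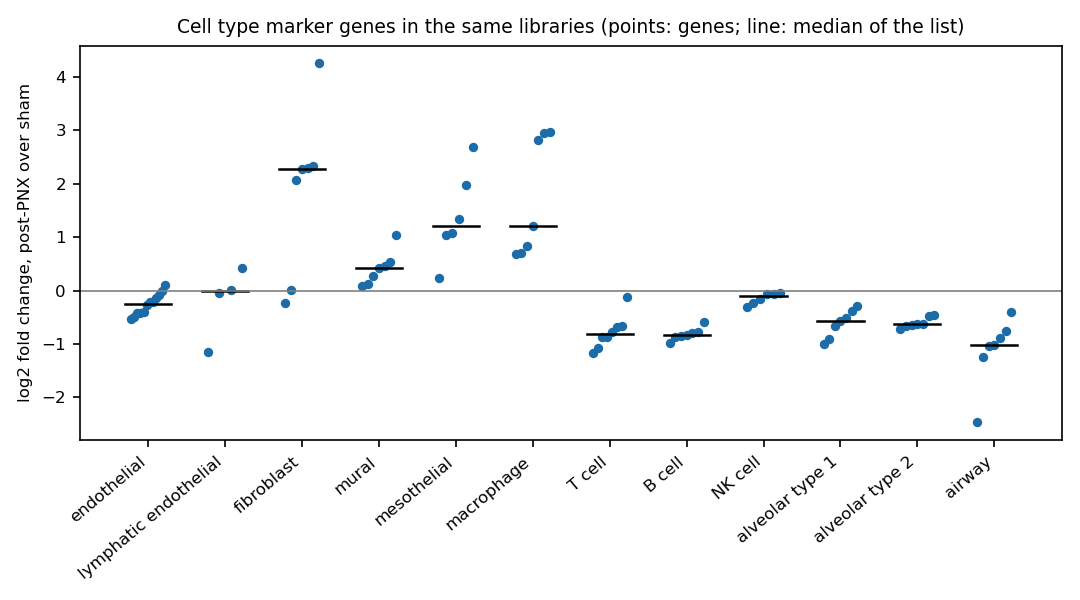
Log2 fold change of post-PNX over sham (y axis) for the marker genes of 12 cell types (x axis), 1 point per gene, with a black line at the median of the list. Fibroblast markers have a median of 2.27, mesothelial markers 1.21 and T cell markers -0.82, while the endothelial median lies at -0.25.

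A list of 60 other pathway genes (kinases, Dishevelleds, coactivators and corepressors, planar polarity genes and further receptors) served to show the rest of the machinery. Of the 59 tested, 17 rose (28.8%, against 29.3% of all genes tested) and 23 fell (39.0%, against 27.8%). The other 19 did not pass, and the median log2 fold change was -0.09. Scaled to the endothelial genes 30 rose (58.6% of all genes did) and 6 fell (8.93% of all genes did). Only Frzb and Ror2 were past both thresholds (3.39%, against 7.56% of all genes). Frzb, a secreted decoy related to the Sfrps, had 13.6 and 16.3 normalized counts in sham and 50.1 and 42.3 after PNX, with a log2 fold change of 1.63 (SE 0.29). Ror2, a receptor of Wnt5a, had 122.3 and 138.6 in sham and 358.7 and 408.9 after PNX. Its log2 fold change was 1.56 (SE 0.11, adjusted p = 3e-20), so that both the ligand and its receptor were higher in post-PNX libraries. Which cells held them, and whether the same cells held both, was not tested. Sostdc1 had 0 counts in all libraries and was the gene not tested.

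Beside the targets among the 61 genes, 11 genes known as targets of beta-catenin in other tissues were listed, and 9 were tested. Of the 9, 6 rose (66.7%, against 29.3% of all genes tested) and 1 fell (11.1%, against 27.8%). Wisp1 had 179.4 and 176.4 normalized counts in sham and 1050 and 1174 after PNX, a log2 fold change of 2.64 (SE 0.076). Ccnd1, which encodes cyclin D1, had 13730 and 13562 in sham and 20505 and 20344 after PNX, a log2 fold change of 0.58 (SE 0.02). Myc (0.47), Apcdd1 (0.46), Wisp2 (0.26) and Sox17 (0.19) also rose. Fgfbp1 fell from 185.7 and 204.9 to 74.7 and 62.4, a log2 fold change of -1.50 (SE 0.14). Tnfrsf19 (0.00) and Sp5 (-0.16) did not pass, and Cdx1 and Mmp7, with at most 1 count in a library, were not tested. Among the 61 genes, the known targets Lef1, Nkd2, Tcf7, Nkd1 and Rnf43 fell, Lgr5 rose, and Axin2, Notum and Znrf3 did not pass the test. Scaled to the endothelial genes, Lef1 and Nkd2 still fell, Tcf7 (-0.01), Rnf43 (-0.08) and Notum (0.24) did not pass, and Nkd1 (0.12), Axin2 (0.26), Znrf3 (0.24) and Lgr5 (1.87) rose.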

How the data were processed

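CD31-selected cells of 2 sham-operated and 2 post-PNX pools were compared by RNA sequencing (stranded mRNA kit, paired ends). Per the labels, reads were aligned with STAR to mm10; the counting program, its strand setting and versions are not given in the sources used here. The authors deposited whole-number counts for 33068 RefSeq transcripts, not normalized, and FPKM values scaled to transcript length and library total; the deposited TPM column was not used. Reads shared by several transcripts of 1 gene may have been counted repeatedly, which was not tested. Each symbol was therefore represented by the transcript whose counts, summed over libraries, were highest.

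Counts were analysed with edgeR 4.0.16 in R 4.3.3 (filterByExpr with a minimum count of 10, which left 16208 genes; TMM factors from 0.9985 to 1.0026; quasi-likelihood F test without covariates; Benjamini-Hochberg adjustment over all genes tested). The SE is the log2 fold change divided by the square root of F. FPKM served for levels between genes and for shares of a family. Libraries of a group differed little (common biological coefficient of variation 0.0142), but by more than sampling noise (mean chi-square of 1.74 and 1.51 per gene). Whether so small a spread holds the differences between separate pools of mice was not tested, and small p-values are to be read with that limit. Alternatives used DESeq2 1.42.0 and other scalings, filters and libraries. Steps were tested on simulated data. Gene coordinates and promoters are from RefSeq on GRCm38.p6, whose chromosomes are those of mm10. Exon overlaps and the starts of the counted transcripts are from the GENCODE M21 annotation of GRCm38.

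The genes, lists and alternatives were chosen with earlier results of these data known. Values in every library are given for genes past both thresholds, for the most abundant and the most changed gene of each role, and for Lrp5, Lef1, Axin2 and Ctnnb1. Replicate numbers 1 and 2 in the titles name different mice.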

Additional observations from a re-analysis of the deposited data

How the results depend on the processing

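DESeq2's size factors and library size alone gave the same 11 genes past both thresholds and 33 past the test. Scaling to the 12 endothelial genes changed most: 26 of the 61 genes rose, 9 fell and 1 remained lower past both thresholds, the median log2 fold change turned to 0.24, and of the other pathway genes 30 rose, 6 fell and 4 were past both thresholds. Among genes past the test under either scaling it turned the log2 fold change of Axin1 to 0.085, Fzd5 to 0.24, Nkd1 to 0.12, Tcf7l2 to 0.17, Znrf3 to 0.24, Reck to 0.010 and Tnfrsf19 to 0.25; Fzd3, Fzd8, Lgr4, Notum, Wnt11 and Wnt9b also changed sign, without passing the test under either. A mean of at least 50 counts left 44 of the genes and 7 past both thresholds, 5 of them higher, with a median of -0.0668 and 1 other pathway gene past both thresholds; Fzd10, Lgr5, Sfrp4 and Wnt6 are too scarce to be tested there.

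Leaving out 1 library in turn gave 27 to 30 genes past the test, 8 to 10 past both thresholds, 1 to 2 of them lower (Lef1 was lost without the first sham or first post-PNX library), 7 to 8 higher and a median of -0.046 to -0.00688. A lone sample is then assumed to vary like the other group. The DESeq2 Wald test gave 25 genes past the test and 9 past both thresholds, losing Fzd10 and Wnt6. No filter and counts summed over transcripts each gave 10, without Wnt6.

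The replicate numbers do not pair the samples, which came from different mice; deviations of same-numbered libraries correlated at 0.03. With the number as a block, 33 genes passed the test and 11 both thresholds, and of the other pathway genes 41 passed in place of 40.

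Depth limits the genes under about 70 normalized counts, whose standard errors were all above 0.2. With 2 libraries per group the tests cover the spread between these libraries only. Whether the endothelial genes fell within ECs or as a smaller part of the mixture cannot be told apart.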
